A study of Homo sapiens with 2 samples.

Results

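The YBX1 binding sites in 3′ untranslated regions (3′UTRs) were taken from a PAR-CLIP experiment in the human embryonic kidney line HEK293. The list of sites held 2054 entries, of which 726 carried the class 3′UTR in the authors' annotation, and the 724 of these that were at most 60 nt wide are described here. The 2 sites beyond this limit lay in CERS2 (112 nt) and NAIF1 (1571 nt), whereas the widest site within it spanned 34 nt. The study used 2 PAR-CLIP replicates of 1 condition, and no untreated group or control immunoprecipitation was analysed here. Per the methods, YBX1 with a FLAG/HA tag was stably overexpressed in the T-REx HEK293 Flp-In line, and the bound RNA was recovered with an antibody to FLAG, while the labels name the YBX1 antibody D2A11. The authors called the sites on both replicates together. Besides position, strand, gene name and class, the list holds no reads, conversions or scores of a site. Therefore, the depth behind each site is unknown and replicates cannot be compared, and all intervals cover counting error or the spread between sites only.

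YBX1 is a cold-shock domain protein that binds single-stranded RNA and is known as a regulator of mRNA stability and translation. The 3′UTR follows the stop codon of an mRNA and carries many of the elements that RNA-binding proteins and microRNAs recognise. In PAR-CLIP, cells incorporate 4-thiouridine into their RNA, and UV light of long wavelength links this base to the protein that touches it. The RNA around the protein is then cut back by RNase T1, which cleaves after guanine. A site from such an experiment therefore needs a uridine, and its ends depend on where the nearest guanines lie.

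The sequences of the sites were short stretches rich in cytosine, adenine and uracil between guanines. The 6 sites of CBX5 with the class 3′UTR are shown first. CBX5 encodes the heterochromatin protein HP1 alpha and was followed up in the study. The 5 sites of CCND2, which encodes a cyclin of the early cell cycle, follow. The sequences are given 5′ to 3′ from GRCh38 (hg38), with distances in the spliced 3′UTR. Capitals mark the 10 tetramers with the largest excess in 3′UTR sites over windows of the same exon, which are called the leading tetramers here. In order of this excess in percentage points they were UAAC (22.2), AACU (22.0), ACAU (20.9), ACUU (20.6), CAUC (19.6), AACA (18.9), UUAC (18.6), CUUA (17.4), UACA (17.4) and CAAC (17.2).
CBX5, 306 nt from the stop codon, chr12:54241438-54241460, minus strand: uuuCAACUUuuuaaucacCUUAg
CBX5, 2060 nt from the stop codon, chr12:54239686-54239705, minus strand: cucauaaaccauaccucaag
CBX5, 2551 nt from the stop codon, chr12:54239195-54239214, minus strand: CAUCuacuACUUACCAUCug
CBX5, 2854 nt from the stop codon, chr12:54238893-54238910, minus strand: cacuCUUAAACAccuaag
CBX5, 5910 nt from the stop codon, chr12:54235834-54235857, minus strand: uucuaUAACAACAUauuccucaug
CBX5, 6915 nt from the stop codon, chr12:54234829-54234852, minus strand: uuCAUCUAACAUCAUCucauauug
CCND2, 1175 nt from the stop codon, chr12:4301172-4301196, plus strand: ACAUuccCAUCaCAACAUuccucag
CCND2, 1720 nt from the stop codon, chr12:4301720-4301738, plus strand: uCAUCCAUCCUUAuucacg
CCND2, 3153 nt from the stop codon, chr12:4303153-4303171, plus strand: UAACUUuccacucuuccug
CCND2, 4506 nt from the stop codon, chr12:4304502-4304528, plus strand: auauuuaUUACUUccucauaccACAUg
CCND2, 4849 nt from the stop codon, chr12:4304849-4304867, plus strand: cCAACUCUUACAUCcccag

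Of the 6 CBX5 sites, 4 held 4 leading tetramers each, 1 held 2 and 1 held none, and all 6 ended in a guanine. In CCND2 the sites held 2 to 7. Across all 724 sites, the number of different leading tetramers ranged from 0 to 8 with a median of 3. The extremes of this range are shown next, first the sites with 7 or 8 in PELI2 and PDZD8 and in ARF6, PAICS, EXOC4 and CYCS, then 3 of the 87 sites with none, and last the site in the longest 3′UTR among these genes, that of SMAD2 (32870 nt).
PELI2, 3772 nt from the stop codon, chr14:56300926-56300950, plus strand: uaUAACUUACAUCcuuucaaauaag
PDZD8, 5367 nt from the stop codon, chr10:117277888-117277914, minus strand: UAACAUauaauUUACAACUcucucuag
ARF6, 1856 nt from the stop codon, chr14:49896106-49896135, plus strand: uaaAACUCUUAACAAACAUuUUACUUAaag
PAICS, 1074 nt from the stop codon, chr4:56460602-56460623, plus strand: cacACAUaaAACUUACCAACAg
EXOC4, 547 nt from the stop codon, chr7:134065062-134065089, plus strand: UUACAACAAACUUcccUAACcaaAACAg
CYCS, 601 nt from the stop codon, chr7:25123087-25123114, minus strand: auuauuCAACAccucucACAUCUUACAg
HIF1AN, 5382 nt from the stop codon, chr10:100553509-100553530, plus strand: acuaucucuccacuccuccaag
PPA1, 139 nt from the stop codon, chr10:70203007-70203025, minus strand: acuaauccaauauacucag
AP3M1, 1872 nt from the stop codon, chr10:74121928-74121948, minus strand: cuaucuucucuucuauccaag
SMAD2, 7157 nt from the stop codon, chr18:47834659-47834681, minus strand: aUUACuacCAACUcuuCUUAaag

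PELI2 encodes a ubiquitin ligase of innate immune signalling, ARF6 a small GTPase of membrane traffic, PAICS an enzyme of purine synthesis, EXOC4 a subunit of the exocyst and CYCS cytochrome c. HIF1AN encodes a hydroxylase that inhibits hypoxia-inducible factor, PPA1 an inorganic pyrophosphatase, AP3M1 an adaptor subunit of vesicle traffic and SMAD2 a signal transducer of TGF-beta. In PELI2 and PAICS the leading tetramers overlapped and ran into each other. The 3 printed sites of HIF1AN, PPA1 and AP3M1 held none of them and yet had no guanine before the last base.

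The class given by the authors was first compared with GENCODE release 44 on the strand of each site. Of the 724 sites, 702 lay in an annotated 3′UTR on their own strand (97.0%, Wilson 95% interval 95.4 to 98.0). The other 22 lay outside, and for 18 of these the 3′UTR was on the opposite strand, as at HES2, HES7 and HAND1, which encode transcription factors, and at OTUD4 and GDPD1. HOMER, which assigned the classes, does not use the strand of a site. These 22 sites also differed in sequence. Only 4 of the 22 began after a guanine and ended in one (18.2%), compared with 570 of the 702 (81.2%, Fisher's exact test, p adjusted over 3 features = 2.13e-09). No guanine before the last base was found in 9 of the 22 (40.9%) and 624 of the 702 (88.9%, Fisher's exact test, adjusted p = 2.51e-07). A leading tetramer was present in 13 of the 22 (59.1%) and 624 of the 702 (88.9%), given without a test because these tetramers were chosen on sites with a window.

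Sites in GENCODE 3′UTRs were also found under other classes of the list. They made up 116 of the 147 sites of the transcript end class (78.9%), 84 of the 118 noncoding sites (71.2%), 150 of the 562 exon sites (26.7%) and 54 of the 205 intergenic sites (26.3%). The class analysed here thus held most but not all of the 3′UTR sites.

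**Figure D1:**
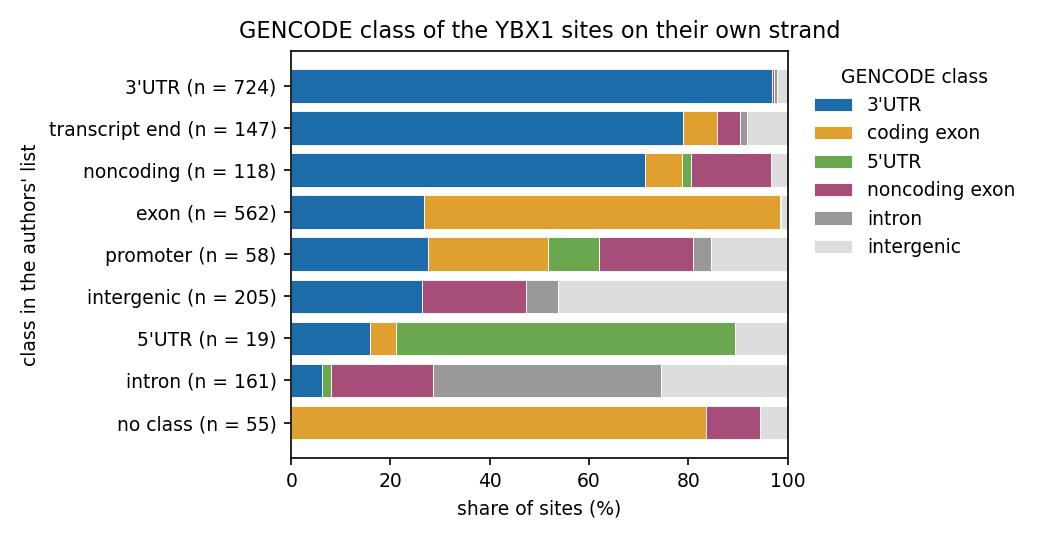
Share of sites (x axis, %) in each GENCODE class on the site's own strand, for each class of the authors' list (y axis, with n). The bar of the 3′UTR class is 97.0% GENCODE 3′UTR, that of the exon class 26.7%.

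The 724 sites were spread over 23 chromosomes, with 112 on chromosome 1 (15.5%), 59 on chromosome 12, 50 on the X chromosome and 3 on chromosome 21, and 354 on the plus and 370 on the minus strand. None lay on the mitochondrial chromosome. Their width had a median of 22 nt (quartiles 20 and 24, range 14 to 34). Within the limit of 60 nt, their mean of 22.2 nt was 0.691 nt below that of the 562 exon sites (22.9 nt, 95% interval of the difference -1.07 to -0.314, n = 1286, least squares with errors clustered by gene). The median was 22 nt in both classes. With repeated sequences left out the difference was -0.367 nt (n = 1189). The limit on width left out 2 wide 3′UTR sites and 0 exon sites. The difference in means therefore holds only within this limit and is given without a test.

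Most sites began and ended where RNase T1 cuts. Of the 724 sites, 679 ended in a guanine (93.8%), 604 began right after one (83.4%), 574 did both (79.3%) and 633 held no guanine before the last base (87.4%). The exon sites were alike, with 94.3%, 88.4% and 81.9% for the end, the start and the lack of an inner guanine, but intron sites ended in a guanine in 60.2% and intergenic sites in 63.9%. Each 3′UTR site contained 2 to 18 uracils, with a median of 7.

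The sequence of 92 sites occurred at more than 1 place in the genome (12.7%, Wilson interval 10.5 to 15.3), so that their reads could have come from elsewhere. Of the exon sites only 5 of 562 did so (0.890%), a difference of 11.8 percentage points (Fisher's exact test, p = 2.07e-18), while in the transcript end class the share was 15.6%. The repeated 3′UTR sequences belonged to 84 genes, including the phosphatase gene PTPN11, TOMM20 and EIF1AX. For 54 of them there were 2 places, and for 4 at least 10, up to 47. Another place lay in an annotated pseudogene on the same strand for 7 of the 92 (7.61%). No 2 of the 724 sites had the same sequence.

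Compared with other stretches of the same exon, 3′UTR sites were enriched in cytosine, whereas the sign for adenine depended on the reference. For 703 sites, the same exon offered a window of equal width at a distance of 100 nt that touched no listed site. Cytosine made up 27.0% of the sites and 17.6% of the windows (+9.41 percentage points, 95% interval 8.47 to 10.4), and adenine 33.0% and 28.9% (+4.02, 2.95 to 5.09). Guanine was at 5.49% and 20.3%, and uracil at 34.6% and 33.2% (+1.38, n = 703, p = 0.0130, p adjusted over 9 quantities = 0.0130). Cytosine plus adenine reached 59.9% compared with 46.5% (+13.4, 12.3 to 14.5, p = 2.41e-85, n = 703, errors clustered by gene).

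Since the lack of guanine raises every other base, the shares were also taken among adenine, cytosine and uracil alone. On this scale cytosine remained higher in the sites (28.5% compared with 22.1%, +6.40), whereas adenine (-1.64) and uracil (-4.76) were lower. A further comparison used windows of the same exon that begin after a guanine, end in one and hold as many inner guanines as the site, which are called T1 windows here and existed for 569 sites. Against these, cytosine was 3.69 points higher (2.88 to 4.49) and uracil lower (-4.10 points, -4.96 to -3.24), and the excess of cytosine plus adenine was 4.63 points (3.77 to 5.49), compared with 13.4 against the windows 100 nt away. Adenine was 0.945 points higher (0.0701 to 1.82). The excess of cytosine was thus present with all 3 kinds of reference, and the sign for uracil turned from higher to lower once guanine was accounted for. Adenine was lower among adenine, cytosine and uracil alone but slightly higher against T1 windows.

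**Figure D2:**
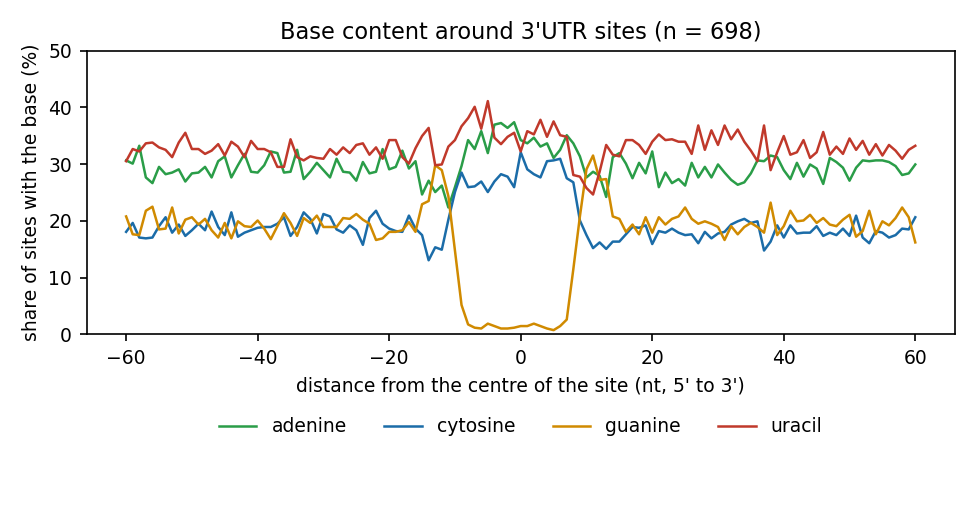
Share of sites with each base (y axis, %) by distance from the centre of the site (x axis, nt, 5′ to 3′) for 698 3′UTR sites. Within 5 nt of the centre cytosine averaged 28.4% and guanine 1.30%, compared with 18.4% and 19.6% at 40 to 60 nt, and guanine peaked at both edges of the sites.

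Both ends of the sites had base preferences of their own. Compared with T1 windows, the first base was cytosine in 42.4% of 569 sites and 26.2% of windows (+16.1 points, n = 569, p adjusted over 6 comparisons = 3.03e-12), and adenine (-7.63) and uracil (-7.90) were less frequent there. The base before the final guanine was adenine in 54.7% and 40.3% (+14.3 points, n = 569, adjusted p = 2.68e-10) and uracil in 40.1% and 53.2% (-13.1 points), while cytosine was rare there in both (5.10% and 5.47%, adjusted p = 0.702). Cytosine made up 28.1% of the 5′ and 28.3% of the 3′ side of a site. Relative to T1 windows, the 5′ minus 3′ difference was lower for cytosine (site minus window -1.97 points, n = 569, adjusted p = 0.0389) and higher for uracil (+2.01, n = 569, adjusted p = 0.0460).

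Tetramers were compared by their presence in a site and in its window 100 nt away. Of 256 tetramers, 71 (27.7%) were found more often in the sites and 145 (56.6%) less often (exact McNemar test, Benjamini-Hochberg adjustment). All 71 were among the 81 tetramers without guanine, and all 145 among the 175 with guanine. UAAC had the largest excess, with 28.9% of sites and 6.69% of windows, followed by AACU with 31.3% and 9.25%. ACUU (31.0% and 10.4%), CAUC (24.0% and 4.41%) and AACA (28.6% and 9.67%) were also among the leading ones. At least 1 of the 10 leading tetramers occurred in 88.9% of 703 sites compared with 42.4% of windows, which is a description, since the tetramers were chosen on these sites.

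Each site was also paired with the nearest T1 window within 2 nt of its width (546 sites). In these pairs, 28 of the 256 tetramers passed the adjusted threshold of 0.05 with a higher share in sites than in windows. Another 15 passed it with a lower share (exact McNemar test, Benjamini-Hochberg adjustment), and the remaining tetramers missed it. All 10 leading tetramers, which were chosen on the same sites, were among the 28. UAAC was found in 31.0% of these sites and 14.8% of T1 windows, CAAC in 21.8% and 8.61% and CAUC in 24.9% and 11.2%. These are given without p-values, because the leading tetramers were chosen on the same sites. Runs of uracil and adenine were on the other side. UUUU was found in 21.2% of sites and 43.0% of T1 windows (exact test, adjusted p = 3.29e-13), AUUU in 23.3% and 45.2%, AAAU in 17.2% and 38.6% and AAAA in 15.6% and 32.6%. Stretches of the same exons with the same guanine ends thus held runs of uracil or adenine more often than the sites did.

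**Figure D3:**
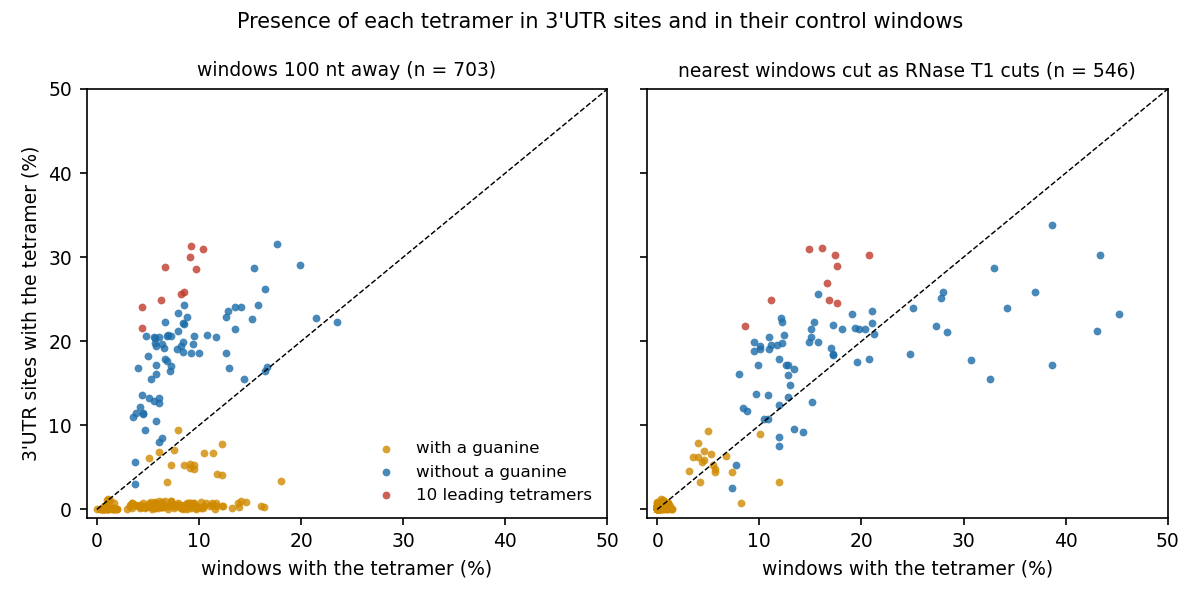
Share of 3′UTR sites (y axis, %) and of control windows (x axis, %) that hold each of 256 tetramers, for windows 100 nt away (left, 703 sites) and the nearest T1 windows (right, 546 sites), with the line of equal shares. The 10 leading tetramers lie above the line in both panels, and 145 tetramers with a guanine were less frequent in the sites on the left.

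Motifs known from other work were searched on the RNA strand in the 724 sites. CAUC, a motif reported for the cold-shock domain of YBX1, was found in 171 sites (23.6%), in 4.41% of windows and in 6.22% of all 22-nt stretches of 3′UTRs. Its longer form UCAUC was found in 59 sites (8.15%), 0.996% of windows and 1.66% of stretches, and CACC in 78 sites (10.8%), 3.56% of windows and 6.91% of stretches. All 3 were more frequent in sites than in windows (exact McNemar test, p adjusted over 6 motifs = 3.12e-25, 7.15e-11 and 1.89e-07). Against the nearest T1 windows, however, CACC was found in 10.8% of sites and 10.4% of windows (exact test, adjusted p = 1), while CAUC kept its excess and UCAUC was not tested. CAUC is contained in UCAUC, so these counts overlap.

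The AU-rich element AUUUA was found in 55 sites (7.60%) and 4.98% of windows, which missed the threshold (exact test, adjusted p = 0.0672). It was not tested against T1 windows, which held the contained tetramer AUUU more often than the sites did. The polyadenylation signal AAUAAA, also not tested against T1 windows, was present in 15 sites, and in 2.13% of both sites and windows among the pairs. UGUANAUA, the element bound by Pumilio proteins, was found in 0 of 724 sites and 0.569% of windows, and it contains guanine.

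The 3′UTR sites and the 562 exon sites differed in uracil and cytosine in the same direction as their windows did. Uracil was higher in 3′UTR sites (34.4% compared with 28.2%, +6.24 points, 5.22 to 7.26) and cytosine lower (26.8% compared with 32.2%, -5.44, -6.41 to -4.47), while adenine was 32.8% and 32.9% (n = 1286, adjusted p = 0.820). Windows existed for 703 of the 724 3′UTR sites but for only 356 of the 562 exon sites, so comparisons with windows leave out many exon sites. The windows differed by +7.70 points in uracil and -5.30 in cytosine. The excess of cytosine plus adenine over the own window was 13.4 points in 3′UTR and 14.5 points in exon sites, a difference of -1.10 (-2.98 to 0.791, n = 1059, p = 0.255). With windows 300 nt away this difference was -2.72 (n = 929, p = 0.0233), and among adenine, cytosine and uracil alone it was 1.49 (n = 1059, p = 0.144).

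Between the classes, 17 tetramers were more frequent in 3′UTR sites (6.64% of 256) and 29 less frequent (11.3%, Fisher's exact test, Benjamini-Hochberg adjustment). These counts were 9 and 7 among sites wider than the median, and the latter was 19 with 1 site per gene. U-rich tetramers were among those more frequent. UUUU was present in 21.8% of 3′UTR and 4.80% of exon sites (exact test, adjusted p = 3.34e-17), UUAA in 31.4% and 14.2% and UUUA in 28.7% and 12.6%. Of the 17, 8 were also more frequent in 3′UTR than in exon windows, UUUU with 23.5% and 8.43%. The strongest difference to the other side was CAAC, present in 21.1% of 3′UTR and 41.6% of exon sites (exact test, adjusted p = 3.51e-13). It was present in 4.41% of 3′UTR and 8.43% of exon windows (exact test, adjusted p = 0.0530). UCAA (16.7% and 33.5%) and CUCA (17.0% and 29.9%) followed, and 5 of the 29 also differed this way between the windows.

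Of the leading tetramers, 5 were among those counted above as different between the classes. UAAC (28.6% and 18.9%) and CUUA (25.1% and 18.3%) were more frequent in 3′UTR sites. Both are given without a p-value, because the leading tetramers were chosen on 3′UTR sites, which favours higher shares there. That choice does not favour exon sites. By Fisher's exact test, AACA (28.5% and 39.7%, adjusted p = 0.000439) and CAUC (23.6% and 31.0%, adjusted p = 0.0231) were more frequent in exon sites, as was CAAC. At least 1 leading tetramer was present in 88.0% of 3′UTR, 89.0% of exon and 85.7% of transcript end sites. In intron and intergenic sites the shares were 59.6% and 70.7%.

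Bases in the sites were predicted to be unpaired more often than those of their windows. Local folding of the exon around each site gave a mean probability of 57.6% for being unpaired in the site and 46.6% in the window 100 nt away, a difference of 11.0 percentage points (n = 703, 95% interval 9.86 to 12.1, p = 2.98e-63), and the site was higher in 543 of 703 pairs. Against T1 windows, with the whole exon folded, the difference was 1.58 points (0.617 to 2.54, n = 569, least squares with errors clustered by gene, p = 0.00133). The means were 57.7% in the sites and 56.1% in the windows, and 312 of 569 sites were higher. Exon sites with a window (n = 356) showed a difference of 12.6 points over windows 100 nt away. The classes differed by -1.58 points (-3.68 to 0.511, n = 1059, least squares with errors clustered by gene, p = 0.138). These values are predictions from sequence and not measured structures.

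Along the 3′UTR, sites lay more often on the side of the stop codon. Of 689 sites with a position in the chosen transcript of their gene, 438 lay in the first 50% of the 3′UTR (63.6%, Wilson interval 59.9 to 67.1, exact binomial test, p = 1.01e-12). With 1 site per gene the share was 62.8% of 532 (exact binomial test, p = 4.00e-09). The first 10% of the length held 108 sites and the last 10% held 25. The median distance was 978 nt from the stop codon (quartiles 382 and 1914, range 5 to 9339) and 1454 nt from the transcript end. Within 100 nt of the stop codon there were 57 sites.

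No site lay within 100 nt of its transcript end, because the annotation gives sites there to the transcript end class, of which 35 did. With every listed site in a 3′UTR, whatever its class, 58.6% of 953 lay in the first 50% (exact binomial test, p = 1.44e-07). With 1 such site per gene it was 58.0% of 731 (exact binomial test, p = 1.72e-05). With the last 100 nt left out of the 3′UTR it was 59.5% of the 689 (exact binomial test, p = 6.80e-07). The share was 63.2% in 3′UTRs under 1000 nt, 60.9% from 1000 to under 2000 nt and 59.2% from 2000 to under 4000 nt. In 3′UTRs of 4000 nt or more it was 70.0% (163 of 233), compared with 60.3% in all shorter ones (275 of 456). This split was chosen after the shares were seen, so it is given without a test. Which 3′UTR isoforms these cells use was not measured here.

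**Figure D4:**
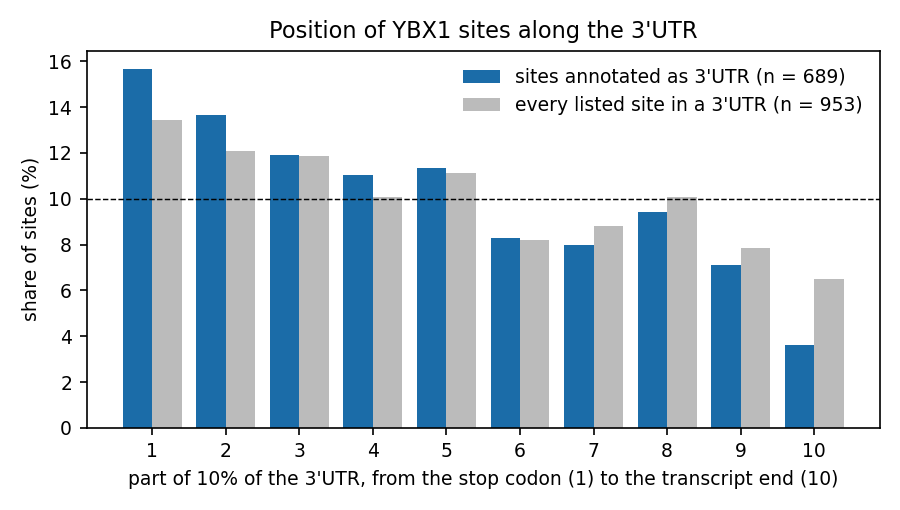
Share of sites (y axis, %) in each 10% of the length of the 3′UTR from the stop codon to the transcript end (x axis), for 689 sites annotated as 3′UTR and for all 953 listed sites in a 3′UTR. The dashed line marks 10%, the share under even placement over the whole 3′UTR. No annotated site lies within 100 nt of the transcript end, where the list uses another class, so 10% does not hold exactly for the annotated sites. The first 5 bars of the annotated sites lie above it and the last 5 below.

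The sites fell into 548 genes, of which 452 had 1 site and 96 had at least 2, with 256 sites together. The gene of the nuclear DNA-binding protein NUCKS1 carried 10 sites between 563 and 4467 nt of its 5458 nt 3′UTR. CBX5 carried 6 between 306 and 6915 nt of 10813 nt, and the list held 2 further sites in its 3′UTR under other classes. Each of 8 genes had 5 sites. These were CCND2, the translation initiation factor gene EIF1AX, the ubiquitin ligase gene RLIM, TMBIM6, which encodes an inhibitor of apoptosis in the membrane of the endoplasmic reticulum, TMED7, which encodes a cargo receptor of the secretory pathway, the nuclear lamina gene TMPO, TOMM20, which encodes a receptor of mitochondrial protein import, and VMA21, which encodes an assembly factor of the vacuolar proton pump. Repeated sequences made up 3 of the 5 sites of EIF1AX and of TOMM20, and 1 each of RLIM and TMPO.

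A further 6 genes had 4 sites each. They were the glycosyltransferase gene ALG11 (UTP14C in the authors' list), B2M, which encodes the light chain of major histocompatibility complex class I, the ubiquitin ligase adaptor gene KLHL15, LRRC58 and the RNA-binding protein genes NUFIP2 and SERBP1. The 16 genes with 3 sites included BCLAF1, EEF2 and FBXW2. Counting sites of the class 3′UTR only, some of the densest 3′UTRs were short. B2M had its 4 sites in 553 nt (7.23 per kb), EEF2, the gene of a translation elongation factor, 3 in 498 nt (6.02 per kb) and TXNDC12 3 in 802 nt (3.74 per kb), compared with 1.83 per kb in NUCKS1 and 0.555 per kb in CBX5. Their sites were not uniform in sequence, and cytosine plus adenine averaged 51.9% over the 10 NUCKS1 sites, 61.3% over the 6 CBX5 sites and 59.6% over all 724.

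**Figure D5:**
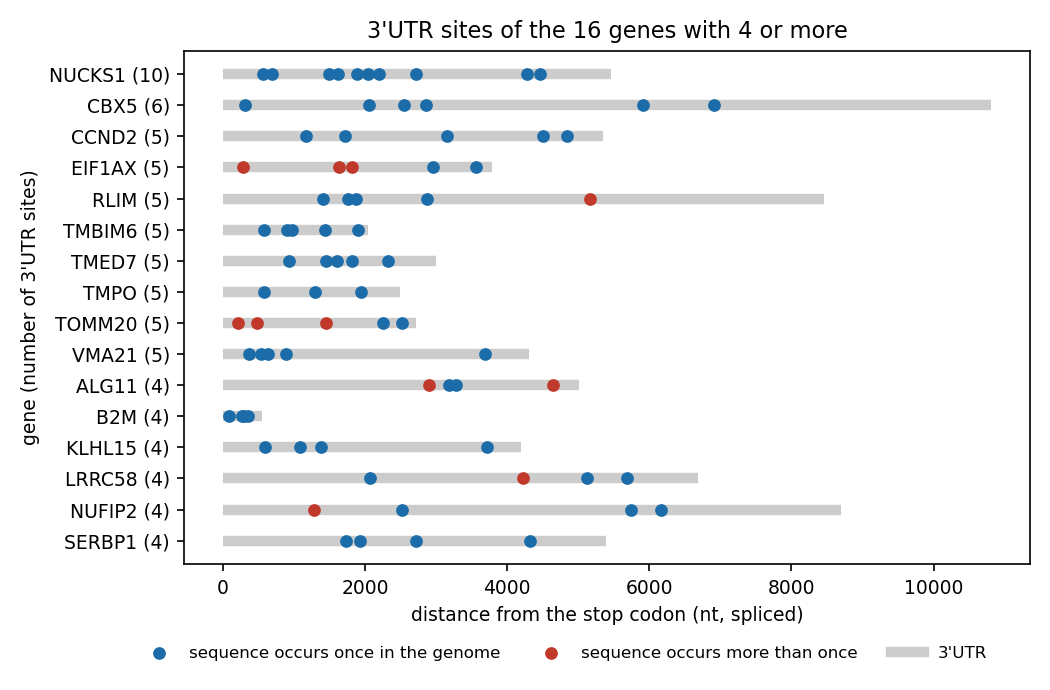
Position of the 3′UTR sites of the 16 genes with at least 4 (points), as distance from the stop codon (x axis, nt of spliced 3′UTR), on the 3′UTR of the chosen transcript (grey bar). Red points are sites whose sequence occurs more than once in the genome, as in EIF1AX and TOMM20, and 2 sites of TMPO that lie outside this transcript are not drawn.

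Neighbouring sites of 1 gene were usually far apart. The distance between neighbours had a median of 497 nt over 157 pairs in 95 genes (quartiles 213 and 982, range 24 to 6304). In 18 pairs it was at most 100 nt and in 38 over 1000 nt. The closest pairs were in FBXW2 and PGRMC1 (24 nt) and in EEF2 (28 nt), and the widest in ACVR2B. Of the 548 genes, 77 also had a site of the exon class, such as TMPO and NUFIP2 with 2 each, and 102 a site of any other class. Sites of the exon class fell into 473 genes in all, and the background used below held 19550. Whether this overlap is larger than among other genes active in these cells was not tested.

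Genes with a 3′UTR site had long 3′UTRs, with a median of 2794.5 nt over 532 genes compared with 1064 nt over 19550 protein-coding genes. A longer 3′UTR offers more room for a site, and expression in these cells was not used here, so group counts are a description. Of all 19550 genes, 2.77% held a site of this class. Among 15 lists of genes with 623 members, 85 genes held one, and 13 of the lists lay above 2.77%. Since the lists hold mostly genes that are active in many cells and the background holds all genes, nothing particular to a list follows from its share.

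Solute carriers, membrane trafficking, translation factors and hnRNP proteins had shares above 20%. Solute carriers had a site in 7 of 21 genes (33.3%, Wilson interval 17.2 to 54.6), with 2 in the amino acid transporter gene SLC38A2 and 1 each in SLC16A1, which encodes a monocarboxylate transporter, and SLC25A5, which encodes an ADP/ATP carrier of mitochondria. In membrane trafficking 9 of 40 genes had one (22.5%, 12.3 to 37.5), with 5 sites in TMED7 and 2 each in ARF6 and RAB11A. Translation factors followed with 8 of 38 (21.1%, 11.1 to 36.3), led by EIF1AX with 5 and EEF2 with 3 and then EIF5 with 2, and hnRNP proteins with 5 of 24 (20.8%, 9.24 to 40.5), led by HNRNPU with 3 and HNRNPA3 with 2.

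Cell cycle and DNA replication genes held a site in 10 of 51 (19.6%), with 5 in CCND2 and 2 in SMC1A, which encodes a cohesin subunit. The mRNA-binding and cold-shock protein genes, which include YBX1 itself, held one in 11 of 58 (19.0%). NUFIP2 and SERBP1 had 4 each and QKI 3, and YBX3, a relative of YBX1, had 1. Ubiquitin ligases and the proteasome had 7 of 42 (16.7%), led by RLIM and KLHL15, and heterochromatin and Polycomb genes 6 of 38 (15.8%), with 6 sites in CBX5, 2 in RYBP and 1 in CBX3.

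In chaperones 5 of 39 genes held a site (12.8%), in the cytoskeleton and in apoptosis 5 of 40 and 4 of 32 (both 12.5%), where TPM4 had 2 and TMBIM6 5. Splicing factors held one in 5 of 45 genes (11.1%), CDC5L, SF3B1 and TRA2B with 2 each. The lowest shares among lists with a site were in the nuclear-encoded respiratory chain and in cytosolic ribosomal proteins. The respiratory chain had 2 of 45 (4.44%, 1.23 to 14.8), CYCS and ATP5MC3, and the ribosomal proteins 1 of 75 (1.33%, 0.236 to 7.17), RPL15. The former lay above the 2.77% of all genes and the latter below, and both intervals hold 2.77%. The median 3′UTR of these lists was 275 nt and 102 nt, compared with 2791 nt for solute carriers. Among 35 genes typical of other tissues 0 held a site (upper limit 9.89%).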

How the data were processed

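PAR-CLIP of YBX1 was carried out in HEK293 cells in 2 replicates. After trimming with cutadapt (1.4.1 per the submitters' processing notes), the authors aligned the reads to GRCh38 with the PARA-suite, called clusters of both replicates together with BMix and annotated them with HOMER. The deposited table holds chromosome, start, end, strand, gene name and class, and other values such as a count or score are not in it, so no depth can be given. Sites span the listed start to the base before the listed end, where the terminal guanine lies.

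Sites were placed by their midpoint on their own strand in GENCODE release 44, with 3′UTRs before coding exons, and 1 transcript per gene (MANE Select or canonical first) gave positions. Windows lay 100 nt away in the same exon, and T1 windows within 5 nt of the site's width (all averaged) or within 2 nt (the nearest, for tetramers). Of the 724 sites, 704 lay inside 1 exon, 703 had a window, 569 T1 windows, 546 a nearest one and 689 a position. Means were compared by least squares with errors clustered by gene (statsmodels 0.14.6), presence by exact McNemar and Fisher's exact tests (scipy 1.17.1), and folding used ViennaRNA 2.7.2 with 200 nt on either side, all two-sided, with Benjamini-Hochberg adjustment at 0.05. The tests were tested on simulated data. Sites of 1 gene are not independent, and p-values measure the spread between sites of 1 pooled experiment.

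Alternatives were any overlap, no regard to strand, other windows, extension, pentamers, 1 site per gene, wide sites and sequences that occur once. T1 windows were planned for cytosine plus adenine. Those for tetramers, folding and the class difference, every 3′UTR site and ends left out were added after seeing the data. Named genes are the 20 with the most sites, up to 3 per list, CBX5 and those of printed sequences. Those named beyond this rule, in examples of strand, repeats, density, spacing and lists, were picked once their values were known. The members and lists were chosen with earlier results of these data known. Some items that the rule covers are not reported here. Repeat masking was not analysed here.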

Additional observations from a re-analysis of the deposited data

How the results depend on the processing

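Of 72 recomputed values, 59 kept their direction and their side of the threshold or stayed close to the reported value. Some of these were much smaller. The excess of cytosine plus adenine, 13.4 points, was 4.63 with T1 windows and 6.08 in sites extended by 10 nt. The difference in unpaired probability, 11.0 points, was 1.58 with T1 windows. The GENCODE share of 97.0% was 99.4% without regard to strand and 98.8% among sites wider than the median. The width difference to exon sites was -0.367 nt with sequences that occur once. Tetramers more frequent than in windows numbered 196 as pentamers and 28 with T1 windows, and those less frequent 80 in sites extended by 10 nt, 395 as pentamers and 15 with T1 windows. Compared with exon sites, 9 were more frequent among wide sites, and 19 (1 site per gene) and 7 (wide sites) less frequent. The class difference in cytosine plus adenine excess was -2.72 points with windows 300 nt away (n = 929, p = 0.0233) and turned to 1.49 among adenine, cytosine and uracil alone (n = 1059, p = 0.144). Wide sites are fewer, and there are more pentamers than tetramers. The cause of the other changes was not tested.

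No paired analysis was possible because the authors pooled both replicates into 1 list, and no replicate was left out for that reason. The planned share of repeat-masked bases was not run, since the reference used here marks no repeats, and the share of sequences at more than 1 place (11.8 points above exon sites) was reported in its stead. Sites were not weighed by depth, which is unknown.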
